A study of Mus musculus with 17 samples.

Results

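Splicing of muscle transcripts depends on a small set of RNA-binding proteins, and 10 of their genes were followed here in the mouse heart 5d after myocardial infarction (MI): Rbm20, Rbm24, Rbfox1, Rbfox2, Mbnl1, Mbnl2, Celf1, Celf2, Qk and Ptbp1. They were chosen by name as known regulators of alternative splicing in heart and skeletal muscle, at a time when earlier results of these data were known, and each had its own entry among the 31647 features of the count table. The libraries came from 17 male wild-type C57BL/6J mice operated on at 8 to 11 weeks of age. In 9 mice the left anterior descending coronary artery (LAD) was permanently ligated and the infarct zone (IZ) was dissected from the left ventricle 5d later. The other 8 mice had sham surgery without ligation, and left ventricular (LV) tissue was taken at the same time. Both groups were wild type without a transgene, and all mice had isoflurane anaesthesia and buprenorphine. The ligation was permanent, so the tissue was not reperfused, and the IZ was compared with LV tissue of other animals rather than with non-infarcted tissue of the same heart.

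RNA was measured by massive analysis of cDNA ends, which reads the polyadenylated ends of transcripts and counts molecules by unique identifiers. A count therefore stands for a transcript of the gene, whichever exons it holds, and none of the values below measures exon inclusion. Levels are given as CPM, counts divided by a library size that TMM (the trimmed mean of log ratios between libraries) adjusts, and differences as log2 fold changes of IZ against sham from edgeR's quasi-likelihood test. The SE of a log2 fold change was derived as its size divided by the square root of the test's F, since the test reports none. A gene was called when its Benjamini-Hochberg adjusted p over all genes tested was below 0.05.

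As background, splicing regulators bind short motifs in pre-mRNA and raise or lower the use of nearby exons, so that the mix of regulators in a cell helps to set which protein isoforms it makes. RBM20 and RBM24 act in heart and skeletal muscle, where RBM20 represses exons of titin and of calcium-handling genes, and its mutation causes dilated cardiomyopathy in humans. RBFOX proteins bind UGCAUG. Muscleblind-like (MBNL) proteins promote adult exon patterns, CELF proteins often act on the same exons in the opposite direction, and the balance between them is disturbed in myotonic dystrophy. Quaking (QK) binds ACUAA-type elements and regulates splicing in muscle, glia and vessels. Polypyrimidine tract-binding protein PTBP1 represses tissue-specific exons in many non-muscle and proliferating cells.

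Promoter sequences were taken from RefSeq (GRCm38.p6), 250 bases before to 50 bases after an annotated start, and 8 of the 10 genes had at least 1 entry. Rbm20 and Rbfox2 had none. The promoters of Rbm24, of its paralogue Rbm38 and of Ptbp1 are shown because the first pair fell together in the IZ and Ptbp1 was the 1 gene of the 10 that rose. They lie at chr13:46418050-46418349, chr2:173021652-173021951 and chr10:79854182-79854481, each on the + strand. Capitals mark GC boxes (GGGCGG), E-boxes (CANNTG) and CCAAT boxes (CCAAT), searched on both strands.
Rbm24: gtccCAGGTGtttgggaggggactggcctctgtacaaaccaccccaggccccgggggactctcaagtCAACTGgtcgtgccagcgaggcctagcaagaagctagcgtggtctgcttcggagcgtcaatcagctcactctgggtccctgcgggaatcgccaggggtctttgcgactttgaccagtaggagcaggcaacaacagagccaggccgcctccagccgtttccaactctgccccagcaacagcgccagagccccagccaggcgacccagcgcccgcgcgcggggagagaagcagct
Rbm38: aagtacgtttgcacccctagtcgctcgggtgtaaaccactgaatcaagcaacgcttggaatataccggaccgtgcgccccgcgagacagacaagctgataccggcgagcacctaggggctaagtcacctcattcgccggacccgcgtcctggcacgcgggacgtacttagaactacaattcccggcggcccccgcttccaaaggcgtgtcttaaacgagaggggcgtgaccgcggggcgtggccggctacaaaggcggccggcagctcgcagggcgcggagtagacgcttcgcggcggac
Ptbp1: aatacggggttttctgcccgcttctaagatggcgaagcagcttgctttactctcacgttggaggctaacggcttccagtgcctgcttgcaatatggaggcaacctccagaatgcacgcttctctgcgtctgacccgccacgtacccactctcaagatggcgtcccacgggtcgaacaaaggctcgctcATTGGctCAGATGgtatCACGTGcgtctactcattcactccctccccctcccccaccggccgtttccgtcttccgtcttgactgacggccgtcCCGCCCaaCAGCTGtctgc
The Rbm24 window held 2 E-boxes, and the Rbm38 window held none of these motifs. The Ptbp1 window held 1 GC box, 3 E-boxes and 1 CCAAT box. Of 32851 RefSeq promoters of this length, 35.7% held a GC box, 72.3% an E-box and 37.4% a CCAAT box. None of the 3 windows held an MCAT element (CATTCC, present in 14.7% of all promoters). No motif overlapped another in the 3 windows. With 18, 37 and 22 CpG dinucleotides, all 3 windows were above the median of 7 over all promoters. GC content was 64.7%, 63.7% and 58.3%, against a median of 52.7%.

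Total counts ran from 1820809 to 4257919 in sham and from 1237675 to 4738307 in the IZ. Heart muscle content was read from cardiomyocyte markers (12 genes, among them Myh6, Tnnt2 and Actc1), and the LV origin itself was not tested. Their summed level was 90588 to 118798 CPM in sham, and 3742 to 41712 CPM in the IZ. Replicate 1 of the IZ stood apart with 41712 CPM, while the other 8 IZ libraries had at most 9697 CPM. Its mitochondrially encoded share was 19.5%, against an IZ median of 5.76% and a sham range of 22.9 to 32.4%. Fibroblast markers (8 genes) summed to 1541 to 2981 CPM in sham and 12685 to 20695 CPM in the IZ, and leukocyte markers (7 genes) to 307 to 487 and 1891 to 5209 CPM. In RNA from whole tissue, fewer cells of a type and less RNA per cell cannot be told apart, and this holds for each difference given below.

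All 10 genes passed the filter on low counts. Of them, 7 were called lower in the IZ, 1 was called higher and 2 were not called, with a median log2 fold change of -0.47 against 0.05 over all 12301 genes tested. The background was high: 69.5% of all genes tested were called, 36.3% higher and 33.1% lower. The libraries of the groups did not overlap for 3 of the 10 genes that were lower (Rbm20, Rbm24 and Rbfox1) and for Ptbp1, which was higher. Over all genes tested, every IZ library lay below every sham library for 16.5% and above for 16.6%. With a log2 fold change beyond 1 in size for 4 genes, the other 6 changed less than 2-fold. Where libraries were scaled by total counts alone, all genes shifted upward by a median of 1.09 on the log2 scale, and so values under that scaling are read against that shift.

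**Figure D1:**
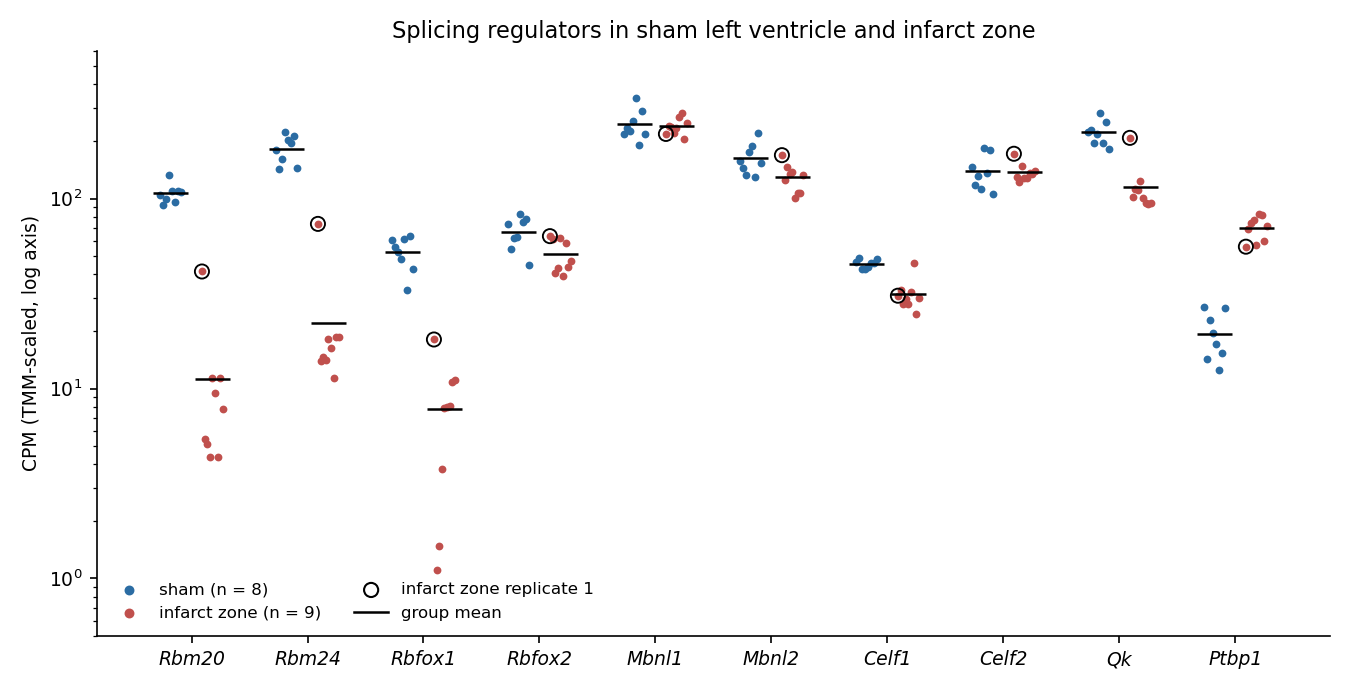
CPM (TMM-scaled, log axis) of the 10 splicing regulators in each sham (n = 8) and IZ (n = 9) library, with bars at the group means and IZ replicate 1 circled. Rbm20, Rbm24 and Rbfox1 separate downward and Ptbp1 upward without overlap, whereas the Mbnl1 and Celf2 ranges overlap.

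Rbm20, at chromosome 19 (53677306 to 53867080, + strand, GRCm38), had the largest fall of the 10. Its level was 92.3 CPM in the lowest, 107 CPM in the median and 134 CPM in the highest sham library, and 4.34, 7.77 and 41.3 CPM in the IZ. All 9 IZ libraries lay below the lowest sham library, and replicate 1 was the IZ library nearest to it. The log2 fold change was -3.32 ± 0.33 (SE; edgeR's quasi-likelihood test, Benjamini-Hochberg adjusted p = 6.84e-09), and 1.32% of all genes tested fell further. Without IZ replicate 1 it was -3.99, and the IZ mean moved from 11.2 ± 11.7 CPM (SD, n = 9) to 7.39 CPM. The median library held 193.5 counts in sham and 23 in the IZ, so single IZ values carry a wide counting error.

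Rbm24, at chromosome 13 (46418434 to 46431095, + strand), encodes an RNA-binding protein that promotes inclusion of muscle exons and is needed for sarcomere assembly. Its level was 143, 188 and 223 CPM (lowest, median and highest) in sham and 11.4, 16.3 and 73.6 CPM in the IZ. Again no IZ library reached the sham range, and replicate 1 was the highest. The log2 fold change was -3.06 ± 0.29 (SE; edgeR, adjusted p = 2.80e-09), and -3.59 without replicate 1. Its paralogue Rbm38, whose coding sequence was 76.6% identical over the aligned bases, was also lower in the IZ, with 131, 159 and 246 CPM in sham and 10.2, 18.9 and 50.4 CPM in the IZ. Rbm38 fell by 3.04 on the log2 scale (SE 0.24, edgeR, adjusted p = 1.81e-10) with no overlap between the groups. RBM38 is better known as a p53 target that binds mRNA of cell cycle genes.

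Rbfox1, at chromosome 16 (5885355 to 7411526, + strand), is an RBFOX gene used in heart, skeletal muscle and neurons. It was at 33.1, 54.0 and 63.6 CPM in sham and 1.11, 7.99 and 18.1 CPM in the IZ, with all 9 IZ libraries below the sham range. It fell by 2.89 on the log2 scale (SE 0.35, edgeR, adjusted p = 1.23e-07), and without replicate 1 the log2 fold change was -3.28. Rbfox2 (chromosome 15, 77078990 to 77307004, - strand) is more widely expressed and moved much less. Its sham values were 44.4, 68.4 and 82.8 CPM and its IZ values 39.2, 47.0 and 63.4 CPM, with 4 of 9 IZ libraries below the sham range. The log2 fold change was -0.39 ± 0.14 (SE, edgeR, adjusted p = 0.0135). That call was lost with upper quartile scaling (-0.28, edgeR, adjusted p = 0.0696). With total counts alone the sign turned (0.69) and the gene was called higher (edgeR, adjusted p = 3.54e-05), below the median shift of 1.09.

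Neither Mbnl1 nor Celf2 was called with TMM scaling. Mbnl1 (chromosome 3, 60472830 to 60629750, + strand), the main muscleblind gene of muscle, ranged from 190.4 to 338 CPM in sham and from 206 to 281 CPM in the IZ. Its log2 fold change was -0.04 ± 0.12 (SE, edgeR, adjusted p = 0.757). With total counts alone it was 1.05 and called higher (edgeR, adjusted p = 8.02e-08), close to the shift of all genes. Celf2 (chromosome 2, 6539694 to 7509563, - strand), a splicing regulator of heart, brain and T cells, ranged from 106 to 185 CPM in sham and from 122 to 172 CPM in the IZ, with a median of 134 CPM in each group. Its log2 fold change was -0.02 ± 0.12 (SE, edgeR, adjusted p = 0.886), or 1.06 and called higher with total counts alone (edgeR, adjusted p = 5.61e-09). For both genes the IZ range lay within the sham range. A p that misses the threshold does not show equal levels, and which cells held the transcripts was not measured.

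Mbnl2 (chromosome 14, 120275669 to 120431697, + strand), the second muscleblind gene, was at 130.1, 156 and 222 CPM in sham and 101, 133 and 169 CPM in the IZ, and 4 of 9 IZ libraries lay below the sham range. The log2 fold change was -0.34 ± 0.13 (SE, edgeR, adjusted p = 0.0221). With total counts alone the sign turned to 0.74 and the gene was called higher (edgeR, adjusted p = 4.07e-06). The call as lower was also lost with upper quartile scaling (-0.23, edgeR, adjusted p = 0.114), without a filter on low counts (-0.29, edgeR, adjusted p = 0.110), without sham replicate 7 (-0.27, edgeR, adjusted p = 0.0592) and without IZ replicate 6, 7 or 8 (-0.28 to -0.29, edgeR, adjusted p = 0.0567, 0.0527 and 0.0556). Celf1 (chromosome 2, 90940382 to 91019497, + strand), which regulates both splicing and mRNA decay, had the narrowest sham range, 42.4 to 48.9 CPM with a median of 45.7 CPM. In the IZ it was at 24.8, 30.1 and 45.6 CPM, and 8 of 9 libraries lay below sham. Replicate 7, at 45.6 CPM, was the exception. Its log2 fold change was -0.54 ± 0.11 (SE, edgeR, adjusted p = 1.18e-04). With total counts alone it was 0.55 and called higher (edgeR, adjusted p = 6.27e-04), below the shift of all genes.

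Qk (chromosome 17, 10202601 to 10319854, - strand) was at 182, 222 and 281 CPM in sham and 93.5, 102 and 209 CPM in the IZ. Of the IZ libraries, 8 lay below the sham range, and replicate 1, at 209 CPM, lay inside it. The log2 fold change was -0.95 ± 0.15 (SE, edgeR, adjusted p = 6.36e-06) and -1.13 without replicate 1. With total counts alone it was 0.11 and was not called (edgeR, adjusted p = 0.396), against the median shift of 1.09.

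Ptbp1 (chromosome 10, 79854427 to 79864771, + strand) was the 1 gene of the 10 that rose. It was at 12.5, 18.3 and 26.8 CPM in sham and at 55.8, 72.0 and 83.1 CPM in the IZ, so the lowest IZ library, replicate 1, lay above the highest sham library. The log2 fold change was 1.85 ± 0.15 (SE; edgeR, adjusted p = 2.31e-10), and 9.22% of all genes tested rose further. It was 1.86 without replicate 1 and 2.94 with total counts alone. The same direction was seen for Ptbp3, a paralogue best known from blood cells, which rose from 20.6, 37.2 and 46.8 CPM to 87.3, 100.2 and 118 CPM (log2 fold change 1.54 ± 0.14, SE; edgeR, adjusted p = 2.29e-09), again without overlap. Ptbp2, the paralogue known from neurons, was not called, with an average of 18.5 ± 3.64 CPM over the sham libraries (SD, n = 8) and 14.1 ± 3.10 CPM over those of the IZ (SD, n = 9). Its log2 fold change was -0.36 ± 0.16 (SE, edgeR, adjusted p = 0.0543), or 0.72 and called higher with total counts alone (edgeR, adjusted p = 5.79e-04). Ptbp2 was called lower with DESeq2 size factors (-0.37, edgeR, adjusted p = 0.0461) and without sham replicate 7 or 8 or IZ replicate 1 or 3 (-0.43 to -0.40, edgeR, adjusted p = 0.0258, 0.0264, 0.0332 and 0.0335), so its call depended on the setting. The 3 genes are 70.4% (Ptbp1 and Ptbp2) and 72.8% (Ptbp1 and Ptbp3) identical over aligned coding bases. Ptbp1 overlaps Plppr3 and E130317F20Rik on the opposite strand. These held 158 and 70 counts over all 17 libraries, and Ptbp1 held 272 in sham and 2304 in the IZ. Whether reads of Ptbp1 were lost to or gained from these genes was not tested. Gm17134 also lies within Ptbp1 on the opposite strand, and no counts were analysed for it. Ptbp3 overlaps Gm12529 on the opposite strand, which held 3086 counts, and without a stated strand setting the reads of such a pair cannot be told apart.

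Of 9 paralogues of the 10 genes, 4 passed the filter. Celf4, known as a neuronal CELF gene, was the other paralogue that rose, from 0 to 6 counts per library in sham to 7 to 62 in the IZ. Its log2 fold change was 1.76 ± 0.38 (SE, edgeR, adjusted p = 2.66e-04). At such counts its level is set by few molecules. Celf4 passed the filter only through its IZ counts, so a fall could not have been called. It was tested in 16 of 26 alternatives and called higher in each. After thinning, and when most single IZ libraries were left out, it failed the filter. Mbnl3, Celf3, Celf5 and Rbfox3 had at most 10 counts in any library and did not pass the filter on low counts. Without that filter none of the 4 was called (edgeR, the lowest adjusted p was 0.0898, for Celf5), nor by DESeq2's Wald test (0.0995). Celf6 had no count.

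Since a ratio of paralogues within a library does not depend on how libraries are scaled, 6 log2 ratios were compared between the groups. Each was tested by the exact two-sided permutation test of the difference in means (24310 arrangements of the labels), with p adjusted over the 6 ratios. Of the 6, the RBFOX ratio had the largest difference. The log2 ratio of Rbfox1 to Rbfox2 was -0.35 ± 0.37 over sham libraries (SD, n = 8) and -3.08 ± 1.34 over IZ libraries (SD, n = 9), a difference of -2.72 (exact permutation, adjusted p = 2.47e-04), and all 9 IZ libraries were below all sham libraries. Within the IZ it spread from -5.70 in replicate 2 to -1.80 in replicate 1.

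The CELF balance also moved. The log2 ratio of Celf1 to Celf2 was -1.58 ± 0.33 over sham libraries (SD, n = 8) and -2.14 ± 0.27 over IZ libraries (SD, n = 9), a difference of -0.56 with 6 of 9 IZ libraries below sham (exact permutation, adjusted p = 0.00485). Celf1 to Mbnl1, a pair known for opposite effects on shared exons, fell from -2.42 ± 0.30 (SD, n = 8) to -2.94 ± 0.16 (SD, n = 9). That was a difference of -0.53 (exact permutation, adjusted p = 0.00197), and 5 of 9 IZ libraries lay below sham. After thinning every library to the smallest total, neither of these 2 ratios passed (Celf1 to Celf2 -0.43, exact permutation, adjusted p = 0.104; Celf1 to Mbnl1 -0.38, exact permutation, adjusted p = 0.0872).

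Mbnl1 to Mbnl2 was the weakest ratio that passed, at 0.60 ± 0.16 over sham libraries (SD, n = 8) and 0.90 ± 0.33 over IZ libraries (SD, n = 9). The difference was 0.31 (exact permutation, adjusted p = 0.0414), with 5 IZ libraries above the sham range and 1 below it. It no longer passed in 10 of the 17 comparisons that left out a library, where it ranged from 0.25 to 0.31. These were the omission of sham replicates 1, 4, 6, 7 or 8 and of IZ replicates 2, 6, 7, 8 or 9. After thinning it was 0.34 (exact permutation, adjusted p = 0.0849).

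The ratio of Rbm24 to Rbm38 was 0.07 ± 0.40 over sham libraries (SD, n = 8) and -0.07 ± 0.50 over IZ libraries (SD, n = 9; exact permutation, adjusted p = 0.508). Ptbp1 to Ptbp3 was at -0.84 ± 0.60 over sham libraries (SD, n = 8) and -0.55 ± 0.20 over IZ libraries (SD, n = 9; exact permutation, adjusted p = 0.228). Neither difference, -0.15 and 0.29, passed the test. Without sham replicate 8 the second was 0.43 and passed (exact permutation, adjusted p = 0.0359).

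**Figure D2:**
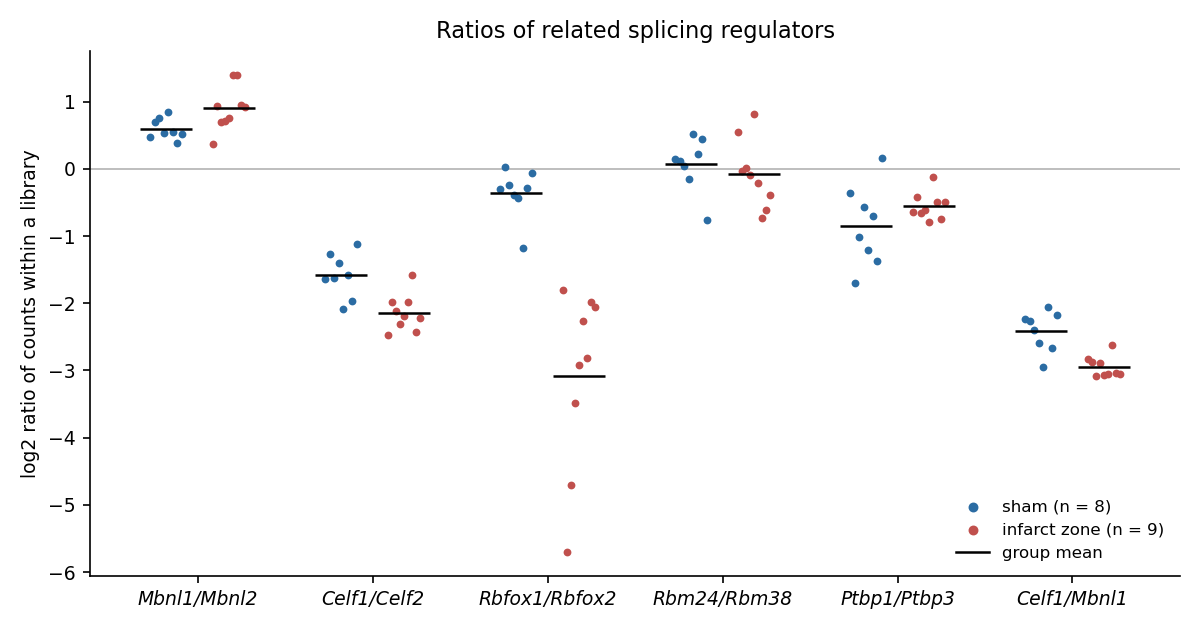
Log2 ratio of the counts of related splicing regulators within each library, for sham (n = 8) and IZ (n = 9), with bars at the group means. The Rbfox1 to Rbfox2 ratio falls from -0.35 to -3.08 with no overlap, while the groups overlap in the other 5 ratios.

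The fall of Rbm20, Rbm24 and Rbfox1 was then set against that of cardiomyocyte transcripts, an analysis added after seeing the data. The level of each gene was expressed as its log2 CPM minus the mean log2 CPM of the 12 cardiomyocyte markers in the same library, and the groups were compared by exact two-sided permutation with p adjusted over the 10 genes. By this measure Rbm20 was at -5.86 ± 0.15 over sham libraries (SD, n = 8) and -5.74 ± 0.27 over IZ libraries (SD, n = 9), a difference of 0.13 (exact permutation, adjusted p = 0.268). Rbm24 was higher in the IZ by 0.46 (exact permutation, adjusted p = 0.0128, 6 of 9 IZ libraries above the sham range). Rbfox1 differed by 0.69 and did not pass (exact permutation, adjusted p = 0.0744), again with 6 IZ libraries above the sham range. These p-values measure the spread between libraries and leave out the spread between markers. Single markers had log2 fold changes from -4.19 (Tnni3) to -2.12 (Actc1). Those of Rbm20 (-3.32), Rbm24 (-3.06) and Rbfox1 (-2.89) lay within that range.

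With the median of the marker list in place of its mean, Rbm20 was at 0.27 and passed (exact permutation, adjusted p = 0.0497), as did Rbfox1 at 0.83 (exact permutation, adjusted p = 0.0298). Rbfox1 also passed without IZ replicate 1, 2 or 3, at 0.81, 0.84 and 0.86 (exact permutation, adjusted p = 0.0395, 0.0276 and 0.0242). The other 7 genes separated from cardiomyocyte transcripts by 2.74 (Qk) to 5.59 (Ptbp1) on the log2 scale, with Celf1 at 3.17, Rbfox2 at 3.34, Mbnl2 at 3.39, Mbnl1 at 3.69 and Celf2 at 3.72. In each of these 7, all 9 IZ libraries lay above all sham libraries (exact permutation, adjusted p = 1.18e-04). Since 12 of 12 cardiomyocyte markers were called lower (median log2 fold change -3.42), a gene with an unchanged CPM rises by this measure. For a gene whose CPM changed little, the separation and its p therefore follow from the fall of the markers. The share of all genes tested that separate in this way was not computed, so nothing particular to these 7 genes is read from it.

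**Figure D3:**
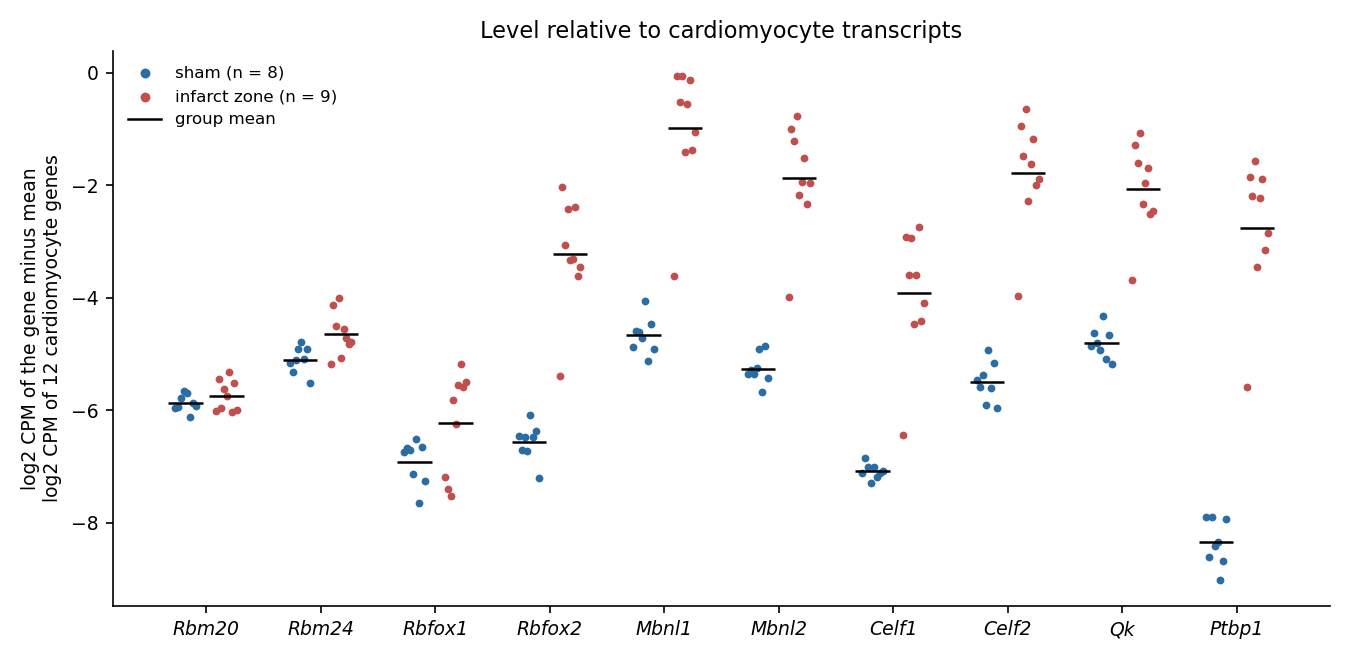
Log2 CPM of each gene minus the mean log2 CPM of 12 cardiomyocyte genes in the same library, for sham (n = 8) and IZ (n = 9), with bars at the group means. The IZ means of Rbm20, Rbm24 and Rbfox1 lie 0.13, 0.46 and 0.69 above their sham means, those of the other 7 genes 2.74 to 5.59 above.

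The IZ libraries also differed among themselves in cardiomyocyte transcripts, so each gene was related to the mean log2 CPM of the marker list within the 9 IZ libraries (10 relations, exact permutation over 362880 pairings). Rbm20 followed the markers closely, with Pearson's r = 0.97 (exact p = 5.51e-04, adjusted p = 0.00495) and Spearman's rho = 0.88 (exact p = 0.00308, adjusted p = 0.0154). Rbm24 did so too, with r = 0.96 (exact p = 9.89e-04, adjusted p = 0.00495) and rho = 0.88 (exact p = 0.00308, adjusted p = 0.0154). Replicate 1 lay far from the other libraries on both axes. Without it, r was 0.88 for Rbm20 (exact p = 0.00920) and 0.81 for Rbm24 (exact p = 0.0174), with an adjusted p of 0.0872 for each. Without replicate 4 alone, r was 0.96 and 0.97 (exact permutation, adjusted p = 0.00893 for each). Without both, the 2 libraries farthest from the median of the markers, r was 0.84 for each gene (exact p = 0.0294 and 0.0200, adjusted p = 0.147). The calls were thus lost when replicate 1 was left out, while r stayed at 0.81 or more.

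Ptbp1 ran the other way, with r = -0.72 (exact p = 0.0106, adjusted p = 0.0355) and rho = -0.68 (exact p = 0.0503, adjusted p = 0.126). Its r was -0.63 without the 2 farthest libraries (exact permutation, adjusted p = 0.274) and -0.64 without replicate 1 (exact permutation, adjusted p = 0.233). It also failed to pass without IZ replicate 3, 4, 5, 7 or 8 (r from -0.75 to -0.70). For Rbfox1, r was 0.69 (exact p = 0.0329, adjusted p = 0.0822) and rho 0.68 (exact p = 0.0503, adjusted p = 0.126), with r = 0.72 without the 2 farthest libraries. The Qk relation, r = 0.83 (exact p = 0.0523, adjusted p = 0.105), came with a rho of 0.20 (exact p = 0.613, adjusted p = 0.682), and r was 0.21 without the 2 farthest libraries. For Mbnl1, Mbnl2, Celf1, Celf2 and Rbfox2, r ranged from -0.36 to 0.67 and none passed. The sign of the Celf2 relation depended on the setting: r was 0.67 as given, -0.24 without IZ replicate 1 and -0.68 with CPM by total counts. With CPM by total counts rho passed for Celf1 (-0.83, exact permutation, adjusted p = 0.0207) and Celf2 (-0.87, exact permutation, adjusted p = 0.0150), though r did not (exact permutation, adjusted p = 0.0981 for each).

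**Figure D4:**
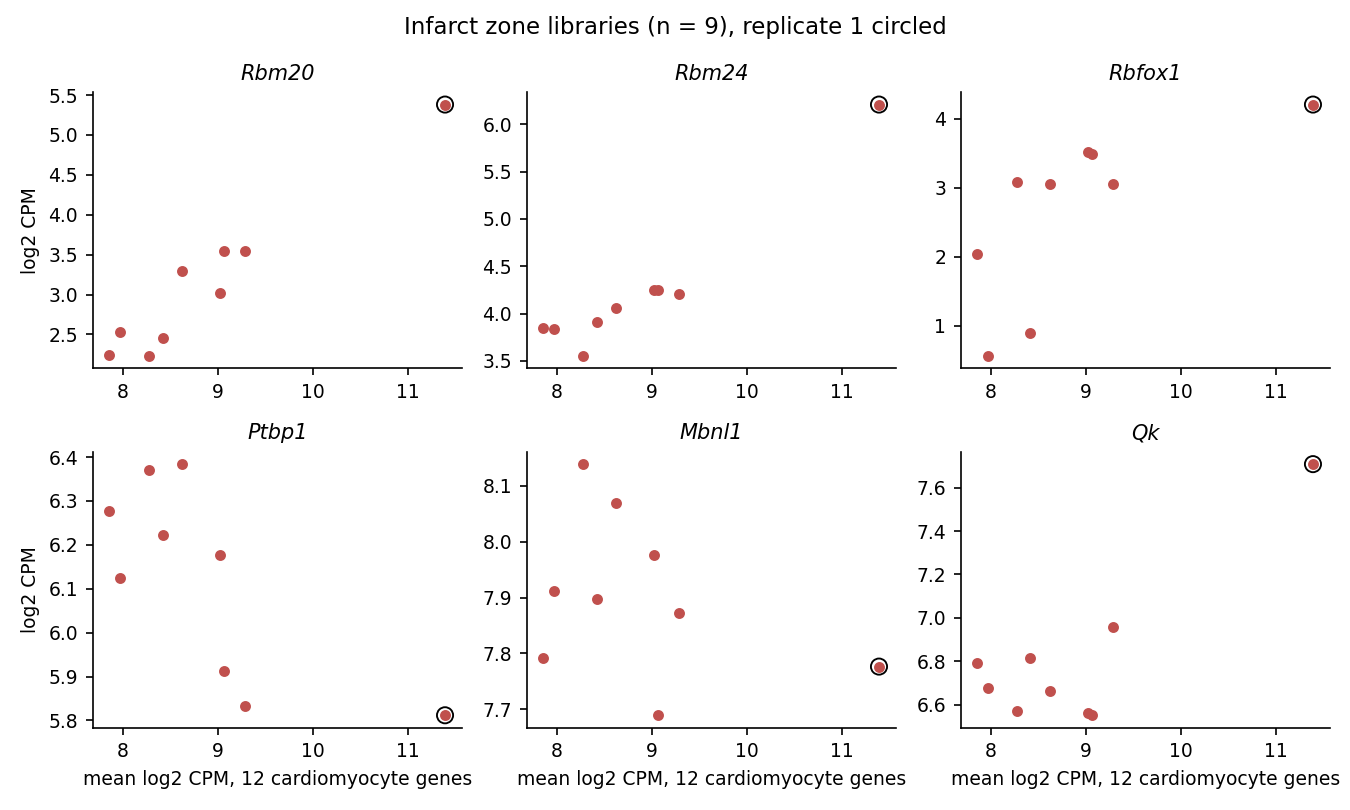
Log2 CPM of 6 of the splicing regulators against the mean log2 CPM of 12 cardiomyocyte genes in the 9 IZ libraries, with replicate 1 circled. Rbm20 (r = 0.97) and Rbm24 (r = 0.96) rise and Ptbp1 (r = -0.72) falls with the markers, and replicate 1 lies far to the right in every panel.

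Other families of splicing factors were read from the same fit. Of 12 SR proteins tested, which bind exonic enhancers, 4 were called higher and 1 lower with a median log2 fold change of 0.21, from Srsf5 at -0.45 to Srsf9 at 1.14. With total counts alone 12 of 12 were called higher (median 1.30, against the shift of 1.09). Of 22 hnRNP proteins, abundant binders of nascent RNA, 9 were called higher and 1 lower with a median of 0.24. The lowest was Hnrnph3 at -1.15, with no overlap between the groups, and the highest was Hnrnpf at 0.87, whose transcript end is nearly identical to several pseudogenes and is therefore uncertain. With total counts alone 21 of the 22 were called higher and none lower (median 1.34).

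Of 20 other splicing regulators tested, 2 were called higher and 5 lower, with a median of 0.03. Rbpms, an RNA-binding protein of cardiac and smooth muscle, was the lowest at -1.64 (151 CPM in sham and 48.3 CPM in the IZ on average, no overlap). Elavl1, which stabilizes mRNAs, was the highest at 0.31 and was not called. With total counts alone 16 were called higher and 2 lower. Among 3 tested regulators known from epithelia and neurons, 2 were called lower, and Srrm4 was the lowest at -3.20 with 10.8 CPM in sham and 1.31 CPM in the IZ on average. The highest, Nova2 at -0.38, was not called.

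Transcripts known as splicing targets of the 10 regulators were counted as whole genes. Of 29 such genes, 23 were called lower and 5 higher, with a median log2 fold change of -2.20. Their summed level was 28158 to 34659 CPM in sham, 5638 to 8022 CPM in the 8 IZ libraries other than replicate 1, and 16988 CPM in replicate 1. The lowest was Atp2a2, the cardiac calcium pump, at -3.88, and the highest was Fn1, fibronectin, at 4.25. Among the best-known RBM20 targets, named here after their values were seen, Ttn (titin) was at -3.01, Ldb3 at -3.01, Ryr2 (the ryanodine receptor) at -2.97 and Camk2d at -0.93, each with 9 of 9 IZ libraries below sham. Pkm, whose exon choice PTBP1 is known to control, was at -0.38, while Bin1 and Actn1 were at 2.03 and 2.90 with 9 of 9 IZ libraries above sham. These 7 genes were called (edgeR, adjusted p below 0.05). The RBM20 targets named here do not stand for the whole list. In it Pdlim3 was at 1.31 and called higher (edgeR, adjusted p = 8.94e-06), with 7 of 9 IZ libraries above sham. Lrrfip1, at 0.19, was not called (edgeR, adjusted p = 0.153). Many of the 29 genes encode parts of the sarcomere or its calcium store, and Ryr2 and Tnnt2 also stand in the cardiomyocyte marker list.

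**Figure D5:**
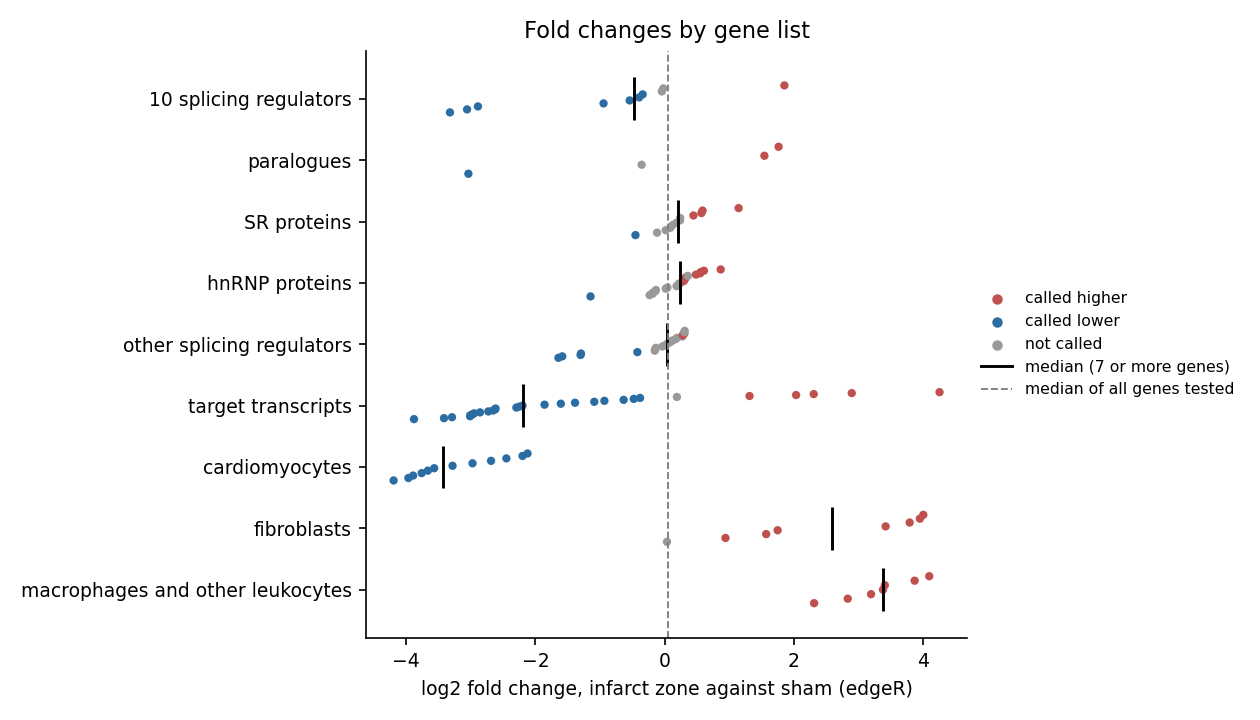
Log2 fold changes of IZ against sham (edgeR) for the genes tested in each list, coloured by call, with a bar at the median of lists of 7 or more genes and a dashed line at the median of all genes tested (0.05). The 10 splicing regulators range from -3.32 to 1.85, the cardiomyocyte list from -4.19 to -2.12 and the leukocyte list from 2.31 to 4.09; with total counts alone, 6 of the 10 (Mbnl1, Mbnl2, Celf1, Celf2, Rbfox2 and Qk) turn positive and the SR and hnRNP medians rise to 1.30 and 1.34.

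Markers of other cells moved with these differences, and their part in them was not tested. Of 8 fibroblast markers, 7 were called higher and none lower (median 2.58, from Dcn at 0.04 to Col1a1 at 4.0). Of 7 leukocyte markers, 7 were called higher (median 3.38, from Csf1r at 2.31 to Cd68 at 4.09), and the end of Csf1r shares its sequence with the neighbouring Hmgxb3. Of 8 endothelial markers, 4 were called lower and none higher (median -0.43, Emcn -0.04, Kdr -1.70). With total counts alone that median was 0.63, below the shift of all genes. Of 8 smooth muscle and pericyte markers, 4 were called higher and 3 lower, from Kcnj8 at -1.80 to Tagln at 2.79. Their summed levels were 495 to 955 CPM in sham and 361 to 610 CPM in the IZ for endothelium, and 505 to 797 and 928 to 1804 CPM for smooth muscle and pericytes.

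Cell types in which Celf2 (lymphocytes) or Ptbp2, Celf4 or Rbfox genes (neurons or skeletal muscle) are otherwise used were checked too. The 8 lymphocyte markers summed to 1.12 to 3.39 CPM in sham and 6.16 to 20.7 CPM in the IZ, and Cd79b (2.25) was the 1 tested. The 8 neuronal and Schwann cell markers summed to 18.4 to 58.6 CPM in sham and 60.6 to 81.6 CPM in the IZ. Of the 5 tested, 2 were called higher and 1 lower, with Tubb3 the highest at 3.44, and Snap25 had no count. The end of Tubb3 is 95% identical over 100 bases to that of Tubb6, which held 2984 counts, so the Tubb3 value is uncertain. The 8 skeletal muscle markers summed to 0 to 15.6 CPM in sham and 7.36 to 18.2 CPM in the IZ, with Myh4 and Myog at 0. Of the 2 tested, Tnni2 was at 1.02 and Tnnt3 at 3.18, and 1 was called, higher.

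The genes most alike each regulator were sought among 9355 genes averaging 10 CPM or more, by the Pearson correlation of log2 CPM over the 17 libraries after each group's mean was subtracted. These are descriptions, and the points share their libraries, their depth and the position of IZ replicate 1. Rbm20 was most like Ldb3 (r = 0.98), Pink1 and Myom2 (both 0.97), and Rbm24 most like Pygm and Vegfb (both 0.98). Qk was most like Pttg1 (0.97), mt-Nd1 and mt-Nd3 (both 0.92). Ptbp1 was most like Inpp5d (0.90), a phosphatase of blood cells, then Vps16 (0.82) and Slc7a7 (0.81). Rbfox1 was most like Slc25a23 (0.86), Adcy5 (0.85) and mt-Ts1 (0.84), whereas Rbfox2 was most like Mat2b (0.81), Arhgap5 (0.78) and Ube2d1 (0.76).

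Of the genes that changed little, Mbnl1 was most like Usp8 (0.84), Csnk1a1 (0.75) and Dido1 (0.72), and Mbnl2 most like Serbp1 (0.91), Plp2 and Jak1 (both 0.87). Celf1 was most like Fgfr1op (0.84), Dennd4b (0.78) and Psmc4 (0.77), and Celf2 most like Pitpnc1 (0.88), Pum2 (0.86) and Natd1 (0.81). None of the paralogue pairs among the 10 appeared in each other's 3 most alike genes.

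How far a gene's counts pool different transcripts varied among the 10. Annotated coding transcripts ended at 1 place for Rbm24 and, counting only ends more than 50 bases apart, at 1 place for Celf1, 2 for Rbm20, 3 for Qk, 4 for Mbnl2 and Rbfox1, 6 for Ptbp1, 8 for Rbfox2, 10 for Mbnl1 and 12 for Celf2. The counts sum over these ends, so a shift between isoforms of Mbnl1 or Celf2 that left the total unchanged would not appear in these values. Paralogues were 73.9% (Mbnl1 and Mbnl2), 73.7% (Celf1 and Celf2) and 73.0% (Rbfox1 and Rbfox2) identical over aligned coding bases. A search with the last 500 bases of their transcripts found a near-identical sequence for 1 of the 10, Ptbp1, in Gm17134 and Gm4900, for which no counts were analysed here. Gm17134 is the opposite strand of the Ptbp1 locus itself. Celf2 contains Gm10115, Gm26315 and Gm10855 on its own strand, with 136, 64 and 1 counts over all libraries against 2009 in sham and 4398 in the IZ for Celf2, and Mbnl1 contains Gm37488 with 2.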

How the data were processed

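The authors isolated total RNA with DNase treatment, prepared cDNA end libraries with molecular identifiers for duplicate removal, trimmed reads with Cutadapt, mapped them to mm10 and counted genes with HTSeq. The submitters' processing notes also name bcl2fastq, Bowtie2 and DESeq2. The deposited values are raw counts per gene, with no normalization. The annotation release, the strand setting and the treatment of reads with several locations are not given in the sources used here. Of 31647 features, 35 are merged groups of overlapping genes (0.0919 to 0.215% of counts per library), kept in the fit without a name. Gene names came from a GRCm38 annotation, in which 31521 features matched. Groups and replicate numbers followed the sample labels, which give no batch. No library copied another (chi-square per degree of freedom between pairs 2.41 to 252).

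Genes passing filterByExpr (minimum 10 counts) were compared with edgeR 4.0.16 (R 4.3.3, limma 3.58.1). Its quasi-likelihood F-test was two-sided and free of covariates. TMM factors were 0.613 to 0.726 in sham and 1.05 to 1.54 in the IZ, without overlap. The scaling thus differed by group, and the sign of small changes depended on it. The Benjamini-Hochberg threshold was 0.05. CPM used TMM-scaled sizes and log2 CPM a prior count of 1. Nothing says whether IZ samples of different mice shared a preparation, so p-values measure the spread between these mice and their libraries. Ratios used counts plus 0.5. Total counts ran from 1237675 to 4738307, so that 3 counts stood for 0.633 to 2.42 CPM before TMM; these floors cover counting error only. The 10 genes and all lists were chosen with earlier results of these data known. Named genes were the 10, their paralogues with at least 10 counts in all, the highest and lowest tested gene of each other list, the 3 most alike genes and genes overlapping one of the 10 on the same strand; exceptions are marked in the text. The results of 2 genes that met this rule are not reported here. Of the listed genes, Rbm3, Esrp1 and Itgam were not analysed here, since no feature carried their name.

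Alternatives were 3 other scalings (DESeq2 size factors, upper quartile, total counts), the Wald test of DESeq2 1.42.0, looser and stricter filters, libraries thinned to the lowest total count, a table stripped of mitochondrially encoded genes, a replicate block, and fits that left out 1 library each. Ratios were also tried with another pseudocount and as differences in medians. Relations were tried with total count CPM, DESeq2 size factors and a prior count of 5. The levels relative to cardiomyocyte transcripts were added after seeing the data. Near-identical ends were sought with BLAST 2.17.0 (last 500 bases, at least 95% identity over 100 bases), and coding sequences were aligned with Biopython 1.88. Python 3.11.15, NumPy 2.4.6, pandas 2.3.3, SciPy 1.17.1 and Matplotlib 3.10.9 were used. On simulated data for the comparison of IZ with sham (11544 genes, 200 changed 2-fold), 87% of changed genes were called, 6.95% of calls were false, and the median fitted log2 changes were 0.97 and -0.99.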

Additional observations from a re-analysis of the deposited data

Results flagged for a closer look

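In 7 of 40 groups of values examined, the highest or lowest library lay far from the others of its group by Dixon's criterion, and chance gives about 1 such case in 20 groups. Replicate 1 of the IZ accounted for 4 of the 7. It held Rbm20 at 41.3 CPM (next IZ library 11.4 CPM), Rbm24 at 73.6 CPM (next 18.6 CPM), Rbm38 at 50.4 CPM (next 28.4 CPM) and Qk at 209 CPM (next 124 CPM). The same library had the highest cardiomyocyte marker sum of the IZ, 41712 CPM against at most 9697 CPM in the others, and its part in these values was not tested.

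Celf1 was at 45.6 CPM in IZ replicate 7, against 32.8 CPM in the next library. Rbm20 was at 134 CPM in sham replicate 4, against 109.8 CPM in the next. The log2 ratio of Rbfox1 to Rbfox2 was -1.17 in sham replicate 6, and the next lowest sham value was -0.43.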

How the results depend on the processing

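Library scaling mattered most to the genes with small changes. With total counts alone the log2 fold changes of Mbnl1 (1.05), Mbnl2 (0.74), Celf1 (0.55), Celf2 (1.06), Rbfox2 (0.69), Qk (0.11) and Ptbp2 (0.72) turned positive, as did the median of the 10 genes (0.62). Of these genes, all but Qk were then called higher (edgeR, adjusted p below 0.05). Each of these values lay below the shift of all genes, 1.09, and upper quartile scaling shifted all genes by 0.11 and testing without a filter by 0.19. The share of higher calls was 85.8% with total counts alone (10727 calls) and 52.3% by TMM (8544). The direction and call of Rbm20 (-3.99 to -2.33), Rbm24 (-3.59 to -2.06), Rbfox1 (-3.28 to -1.84) and Ptbp1 (1.78 to 2.94) held under all 26 alternatives.

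A minimum mean of 50 counts left 5239 calls. Calls rose to 12 SR and 21 hnRNP proteins with total counts alone, and among other regulators to 11 with upper quartile scaling and 18 with total counts alone. Of regulators known from epithelia and neurons, 0 had a mean of at least 50 counts, so 0 could be called there, and after thinning the 1 that was tested (Nova1) was called. After thinning, the ratios of Mbnl1 to Mbnl2 (0.34), Celf1 to Celf2 (-0.43) and Celf1 to Mbnl1 (-0.38) no longer passed. With libraries left out in turn, Mbnl1 to Mbnl2 ranged from 0.25 to 0.38 and Ptbp1 to Ptbp3 from 0.17 to 0.43. Relative to the median of cardiomyocyte transcripts, Rbm20 (0.27) and Rbfox1 (0.83) passed, and Rbfox1 ranged from 0.56 to 0.86 with libraries left out. Relations within the IZ ranged from 0.88 to 0.98 (Rbm20), 0.81 to 0.97 (Rbm24) and -0.76 to -0.64 (Ptbp1) with libraries left out, and without the 2 farthest libraries were 0.84, 0.84 and -0.63. Rbfox1 passed with a prior count of 5 (0.74). The cause of these changes was not tested.

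Replicate numbers were used as a block although they did not pair the samples: residuals of same-numbered libraries correlated at -0.31 to 0.20 over 9355 genes, and 1 of 8 numbers correlated best with its own. Under the replicate block 8079 genes were called, and the Mbnl1 to Mbnl2 ratio no longer passed (0.31, exact sign-flip permutation, adjusted p = 0.129).

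Depth limited Rbfox1 and Rbm20 most in the IZ, with as few as 8 counts in a library.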
